A study of Homo sapiens with 4 samples.

Results

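NSUN2 and WTAP, a pair of genes whose proteins act in RNA methylation, were followed through the m7G peak lists of HepG2 cells. Their peaks were chosen by gene name alone, as every peak that the lists name NSUN2 or WTAP, which gave 1 peak of each gene in each list, or 2 of 3355 peaks in replicate 1 and 2 of 4747 peaks in replicate 2. The lists named 3769 genes in all. The study prepared 2 m7G immunoprecipitation (IP) samples and 2 input samples from untreated HepG2, a human hepatocellular carcinoma line. In this assay an antibody against N7-methylguanosine (m7G) captures poly(A) RNA for sequencing, and a peak is a stretch of mRNA called as enriched, with a fold enrichment and a p-value of its own from the authors. The peak lists of the IP samples were analysed here; input values were not. Whether the IP samples are separate cultures is not stated in the labels, and read depth is unknown, so no counting interval can be given for a fold. Of 12 hepatocyte markers, 7 had a peak in both lists, while ALB, AFP, TTR, HNF4A and FGB had none. Peaks were also present for the immune markers CD68 and LYZ (2 of 5 genes) and for ACTA2 (1 of 6 endothelial and stellate genes). A gene without a peak may be unmethylated or weakly expressed, and these lists do not separate these cases.

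NSUN2 transfers a methyl group to carbon 5 of cytosine (m5C) in tRNAs and in some mRNAs and other noncoding RNAs. WTAP has no catalytic activity of its own; it is a regulatory subunit of the complex that writes N6-methyladenosine (m6A) in mRNA, where it holds the METTL3 and METTL14 methyltransferase pair in nuclear speckles. m7G is the modified base of the mRNA cap and also occurs inside tRNA, rRNA and some mRNAs, where METTL1 and WDR4 form one of the responsible enzymes. The peaks described here are stretches called as enriched on the NSUN2 and WTAP mRNAs themselves. They do not show where the NSUN2 and WTAP proteins act.

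In both genes the peak began in the first part of the gene, at most 455 nt from its 5' end. The WTAP peak of replicate 1 then extended over 11858 nt of genome. The NSUN2 peak was on the minus strand of chromosome 5 (GRCh38) at chr5:6632754-6633000 in replicate 1 and at chr5:6632694-6633030 in replicate 2. It was spliced in both lists, that is, it joined 2 genomic blocks. From 5' to 3', replicate 1 had a block of 117 nt from 6632884 to 6633000 and a block of 3 nt from 6632754 to 6632756, together 120 nt. Replicate 2 had a block of 147 nt from 6632884 to 6633030 and a block of 63 nt from 6632694 to 6632756, together 210 nt. The gap between the blocks, 127 nt from 6632757 to 6632883, was the same to the base in both lists. The blocks may follow annotated exons, so the equal gap is not counted as separate agreement between the lists. Replicate 1 thus reached only 3 nt into the downstream block, which held 2.5% of that peak, whereas it held 30% of the replicate 2 peak. The RefSeq span of NSUN2 runs from 6599239 to 6633044, and the peak began 44 nt inside its 5' end in replicate 1 and 14 nt inside it in replicate 2.

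The WTAP peak was on the plus strand of chromosome 6, and it differed in its structure between the lists. In replicate 1 it was called over 3 blocks at chr6:159727148-159739005. The first block held 186 nt (159727148 to 159727333), the second 38 nt (159736258 to 159736295) and the third 16 nt (159738990 to 159739005), together 240 nt spread over 11858 nt of genome with gaps of 8924 and 2694 nt. In replicate 2 it was a single block of 270 nt at chr6:159727058-159727327. The first block held 77.5% of the replicate 1 peak, so most of the peak lay at the same place in both lists. The span of WTAP starts at 159726693, and the peak began 455 nt inside it in replicate 1 and 365 nt in replicate 2. The RefSeq span of SOD2, from 159669069 to 159762281 on the minus strand, covers the WTAP gene. The kit is named as stranded, both WTAP peaks were called on the plus strand, and SOD2 had 0 peaks in either list.

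**Figure D1:**
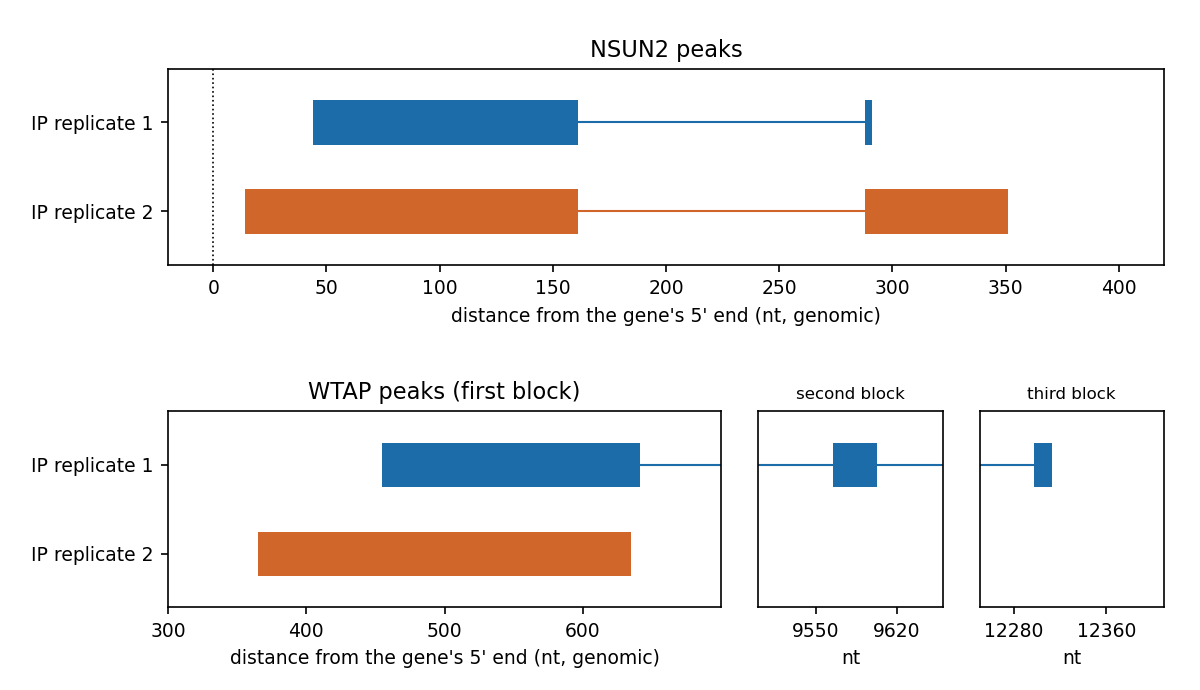
Blocks of the NSUN2 and WTAP peaks in each list (blue, IP replicate 1; orange, IP replicate 2), drawn to scale within each panel by genomic distance in nt from the 5' end of the RefSeq gene span; thin lines are the gaps between blocks. The NSUN2 blocks meet the same 127 nt gap in both lists, and only replicate 1 of WTAP continues into a second block and beyond.

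The reference table holds 2 promoter windows for WTAP (RefSeq, GRCh38.p14, plus strand), each from 250 bases before to 50 bases after an annotated start, and the peaks bear on both. The first is chr6:159726867-159727166, for the start at 159727117. It is shown because the lists disagree on which side of that start the peak begins: the replicate 2 peak began 59 nt upstream of the start and the replicate 1 peak 31 nt downstream of it. Capitals mark the 109 bases inside the replicate 2 peak; the last 19 of them were inside the replicate 1 peak as well.
WTAP first promoter window: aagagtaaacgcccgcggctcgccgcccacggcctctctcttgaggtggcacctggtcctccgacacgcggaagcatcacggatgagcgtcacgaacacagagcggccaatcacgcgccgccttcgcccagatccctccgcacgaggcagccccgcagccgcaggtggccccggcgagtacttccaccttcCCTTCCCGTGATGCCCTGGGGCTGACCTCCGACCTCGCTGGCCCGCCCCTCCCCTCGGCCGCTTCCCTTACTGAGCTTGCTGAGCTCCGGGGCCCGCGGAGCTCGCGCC
The G and C content of this window was 70.3%, and it was 74.3% over the capitals; the median of the 35116 windows in the table was 58.7%, and 80.5% of windows had less than the first WTAP window. The second window, chr6:159727256-159727555 (start at 159727506, 73.3% G and C), held the 3' edge of the first block in replicate 1 and the 3' edge of the whole peak in replicate 2. The stretch at chr6:159727314-159727343 is shown because it holds the base where replicate 1 leaves the first block. Capitals mark the last 20 bases of that block and lower case the next 10 bases of genome.
WTAP end of first block: GCCTGAAAGGCGACTCTCCTgtgagtgggc
The block ended directly before GT, the pair of bases with which most introns begin. Over both lists, 48 distinct block ends lay inside a promoter window of their own gene, and 43 of them (89.6%) were followed by GT. The replicate 2 peak stopped at 159727327, which is inside the same block and short of this boundary. Whether block ends come from annotated exons or from the reads is not stated. If from annotated exons, the GT is given in advance and shows nothing about splicing in these samples.

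Both lists placed the peak of each gene at an overlapping site. In NSUN2, 120 nt were shared, which was the whole of the replicate 1 peak (100%) and 57.1% of the replicate 2 peak. In WTAP, 180 nt were shared, 75% of the replicate 1 peak and 66.7% of the replicate 2 peak. All 4 peaks thus passed an overlap of at least 50% of the shorter peak with the peak of that gene in the other sample. Among all peaks, 65.1% of replicate 1 and 45.4% of replicate 2 passed it. Neither gene passed a stricter overlap of 80% of both peaks, which 37.5% of the 2128 peaks shared one to one by the first rule did.

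The edges of the peaks differed between the lists in whole steps of 30 nt. Counted along the blocks, the NSUN2 peak of replicate 2 began 30 nt farther upstream and ended 60 nt farther downstream than that of replicate 1. The WTAP peak of replicate 2 began 90 nt farther upstream and ended 60 nt short of the end in replicate 1. The last of these distances counts 6 nt of the first block, the 38 nt block and the 16 nt block. The NSUN2 peak was therefore wider on both sides in replicate 2, while the WTAP peak was displaced as a whole towards the 5' end. Of all 2128 shared peaks, 93.3% had both edges displaced by a multiple of 30 nt, within 1 nt, and the median displacement was 30 nt at each edge. The 5' edge was the same within 1 nt in 33.4% of them, and in 79.2% both edges lay within 90 nt of each other, as they did in NSUN2 and WTAP.

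**Figure D2:**
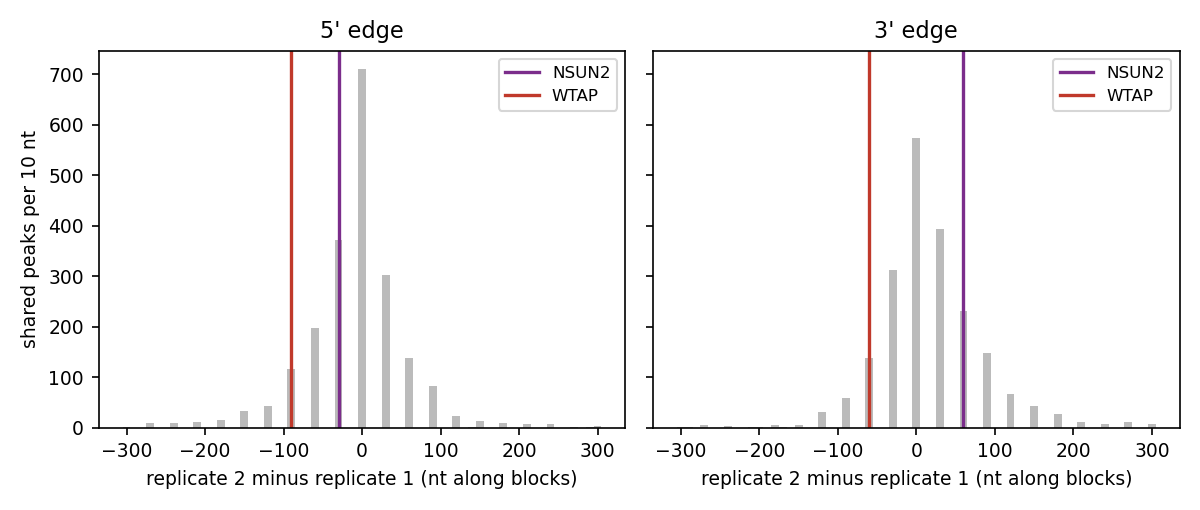
Displacement of the 5' and 3' edges between lists (x axis, replicate 2 minus replicate 1, in nt along the blocks; positive values are farther downstream) for 2128 shared peaks (y axis, peaks per 10 nt), with NSUN2 and WTAP as vertical lines; 50 peaks have an edge outside the plot. The bars stand 30 nt apart, and NSUN2 (-30 and 60 nt) and WTAP (-90 and -60 nt) fall on such steps.

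The strength of enrichment was similar in both genes. NSUN2 had a fold enrichment of 5.77 in replicate 1 and 8.19 in replicate 2, a mean of 6.98 ± 1.71 (SD, n = 2). WTAP had 6.56 in replicate 1 and 5.84 in replicate 2, a mean of 6.20 ± 0.509 (SD, n = 2). The order of the genes thus turned between the lists, with WTAP the higher in replicate 1 and NSUN2 the higher in replicate 2, and their means lay closer together than the values of NSUN2. All 4 values were above the median fold of their list, 3.71 in replicate 1 and 3.87 in replicate 2. NSUN2 exceeded 74.8% of replicate 1 peaks and 87.2% of replicate 2 peaks, and WTAP 80.7% and 74.6%. With 1 group of samples there was no contrast to test, and these ranks are a description.

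The fold of NSUN2 in replicate 2 was 1.42 times that in replicate 1, and that of WTAP was 0.89 times. Over all 2128 shared peaks the median of this ratio was 1.03, with quartiles at 0.838 and 1.31. WTAP was inside the quartiles and NSUN2 above the upper one, with 80.7% of shared peaks at a lower ratio. The folds are not all distinct values: 5.77, the NSUN2 value of replicate 1, was listed for 30 peaks of that list, and 5.84, the WTAP value of replicate 2, for 16 peaks of the other. The remaining values, 6.56 for WTAP and 8.19 for NSUN2, were listed for 3 peaks and 2 peaks.

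The order of the genes by p-value was the same in both lists, unlike their order by fold. Ranked among the peaks of each list, the genes lay farther apart by p-value than by fold in replicate 1 alone. The -log10 p of NSUN2 was 5.64 in replicate 1 and 11.9 in replicate 2. That of WTAP was 28.4 in replicate 1 and 14.5 in replicate 2, so WTAP was the higher in both lists. In replicate 1, where the NSUN2 peak was shortest, its -log10 p exceeded that of 51.0% of peaks and its length that of 28.8%. In replicate 2 these shares were 85.4% and 69.0%. For WTAP they were 92.9% and 77.6% in replicate 1, and 88.7% and 82.4% in replicate 2. In each gene, the list with the higher fold also had the higher -log10 p. The -log10 FDR was 3.77 and 9.68 for NSUN2 and 25.7 and 12.2 for WTAP, in replicates 1 and 2; the weakest in either list was 1.32. A p-value also depends on the reads at a site, whose number is not known here.

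**Figure D3:**
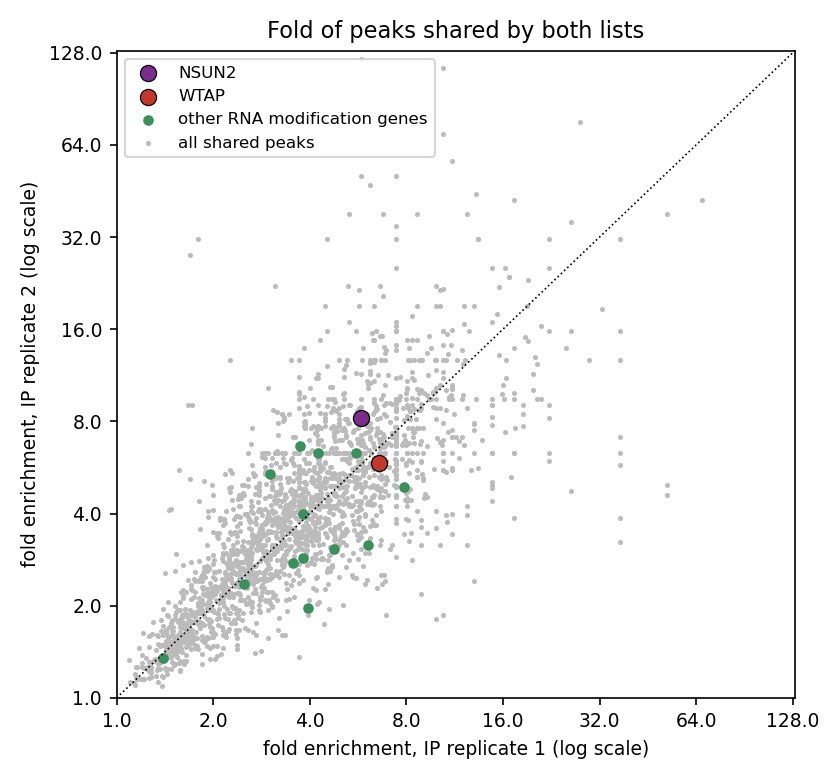
Fold enrichment of each shared peak in IP replicate 1 (x axis) and replicate 2 (y axis), both on log scales, for NSUN2, WTAP, other RNA modification genes (13 peaks) and all 2128 shared peaks; the dotted line marks equal folds. NSUN2 lies above the line and WTAP just below it.

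The position of the peaks was compared with that of other peaks by the distance of the 5' edge from the start of the gene span. In NSUN2 this edge was 44 nt from the start in replicate 1, and 21.8% of the 3182 placed peaks lay closer to their start or beyond it. In replicate 2 it was 14 nt, and 10.5% of 4504 peaks did. In WTAP the shares were 41.9% for 455 nt in replicate 1 and 34.8% for 365 nt in replicate 2. These WTAP distances are from the outermost start of the span, 159726693. From the annotated start at 159727117, the edge was 31 nt downstream in replicate 1 and 59 nt upstream in replicate 2. The annotated start at 159727506 lies downstream of the whole peak in replicate 2 and of the first block in replicate 1. The midpoint of each peak, taken along its blocks, lay 0.305% and 0.349% of the way along the gene span in NSUN2 and 1.94% and 1.69% in WTAP, in replicates 1 and 2. The cap, which itself carries m7G, stands at the first base of an mRNA, and whether cap or internal m7G gave these peaks was not tested.

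NSUN2 and WTAP were next set beside other genes of RNA modification, a chosen list of 86 writers, erasers, readers and related enzymes. The list is not complete, and the counts and ranks below hold for its genes alone. YRDC and DUS1L, which act in tRNA modification, are outside it and had shared peaks. The folds in replicates 1 and 2 were 6.56 and 5.55 for YRDC. DUS1L had 8.24 and 4.81 at a peak and 2.54 and 2.02 at another. A peak in either list was found for 27 of the 86 genes (31.4%), against 3593 of the 20056 protein-coding genes of RefSeq matched by current symbol (17.9%). The RefSeq genes can include genes that HepG2 cells do not express, and their number is not known here, so nothing is read from the difference. Of the 27 genes, 15 (55.6%) had one in both lists, NSUN2 and WTAP among them. Of all genes with a peak in either list, 51.7% had one in both, so the share in this group was near that of all genes. Without NSUN2 and WTAP it was 13 of 25 (52.0%). Of the 8 m5C methyltransferases, 1 had a peak, NSUN2. NOP2, NSUN3, NSUN4, NSUN5, NSUN6, NSUN7 and TRDMT1 had none. Of the 12 m6A writers, 4 had a peak. Beside WTAP these were RBM15B, which helps bring the WTAP complex to its RNAs, METTL16, which methylates U6 snRNA, and PCIF1, which methylates adenosine next to the cap and had a peak in replicate 2 alone (fold 4.87). METTL3, METTL14, VIRMA, RBM15, ZC3H13, CBLL1, METTL5 and ZCCHC4 had none. The 6 m7G methyltransferase genes, METTL1, WDR4, RNMT, RAMAC, BUD23 and TRMT112, had 0 peaks. These counts were not tested against the 17.9% of all protein-coding genes.

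Within this group, 15 peaks of 13 genes were shared by both lists one to one, and NSUN2 and WTAP were among the higher of them by fold. The -log10 p gave another order, in which ALKBH5 and a peak of YBX1 were above NSUN2 and WTAP in both lists. FBL and YTHDF1 were also above NSUN2 in both lists, and above WTAP in replicate 2. In replicate 1, ALYREF, TFB1M, IGF2BP2 and RPUSD1 were above NSUN2 as well. NSUN2 ranked 4 of 15 by fold in replicate 1 and 1 of 15 in replicate 2, and WTAP ranked 2 and 5. Both genes and the list were chosen with earlier results of these data known, so these ranks are a description. The 13 peaks of the other 11 genes had folds of 1.39 to 7.88 in replicate 1 (median 3.8) and 1.35 to 6.63 in replicate 2 (median 3.16). Both values of 8 of these 13 peaks lay below both values of NSUN2, and the same count held for WTAP. The other 5 overlapped the range of NSUN2 and that of WTAP. They were IGF2BP2, an m6A reader (7.88 in replicate 1 and 4.89 in replicate 2), METTL16 (5.56 and 6.33), TRMT61A, the catalytic subunit of a tRNA methyltransferase (4.24 and 6.33), FBL, the 2'-O-methyltransferase fibrillarin (3.74 and 6.63), and TFB1M, a mitochondrial rRNA methyltransferase (6.09 and 3.16). These genes could not be ordered against NSUN2 or WTAP beyond the spread between lists.

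The 8 shared peaks with folds below both genes came from an m6A eraser, readers, the m6A writer component RBM15B and the enzyme RPUSD1. The m6A eraser ALKBH5 had folds of 3.54 in replicate 1 and 2.75 in replicate 2. The m6A reader YTHDF1 had 4.77 and 3.07. The m5C readers had lower folds than the m5C writer NSUN2 in both lists. ALYREF, an mRNA export factor, had 3.94 and 1.96. YBX1 had 3.80 and 2.87 at a peak and 1.39 and 1.35 at another. RBM15B also had a pair of shared peaks, one with 3.0 and 5.39 and one with 2.50 and 2.36. RPUSD1, of the pseudouridine synthase family, had 3.80 and 3.98. In 5 of the 13 peaks the fold was higher in replicate 2, as in NSUN2, and in 8 it was lower, as in WTAP. The 5' edge lay within 200 nt of the start of the gene span in both lists in 7 of the 13, as it did in NSUN2. In WTAP it lay within 200 nt of the annotated start at 159727117 in both lists, but not of the start of the span. Of the 13 peaks, 3 were spliced in either list. Among all peaks, shared or not, 73.6% in replicate 1 and 71.8% in replicate 2 had 1 block. These are shares of a single list, so they do not compare directly with the 3 of 13. How many of all shared peaks lay within 200 nt was not counted, so nothing is read from the 7 of 13.

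Some RNA modification genes had higher folds than NSUN2 and WTAP at sites that were not shared. ADARB1, an adenosine deaminase of RNA editing, had a fold of 18.5 in replicate 1 alone, and TRMT6, the partner of TRMT61A, 8.43 in replicate 2 alone. CMTR1, which methylates the first transcribed nucleotide, had peaks at different sites, with a fold of 3.71 in replicate 1 and 11.1 in replicate 2. The tRNA methyltransferase gene METTL2B had 12.4 and 7.38 at peaks that met in a single base. METTL16 had an unshared peak with a fold of 7.42 in replicate 1. The -log10 p was 3.63 for ADARB1, 5.79 for TRMT6 and 3.28 for this METTL16 peak. In replicates 1 and 2 it was 3.43 and 3.97 for CMTR1 and 6.0 and 3.49 for METTL2B. The median over all peaks was 5.5 in replicate 1 and 5.07 in replicate 2. A peak in 1 list alone was found for 12 of the 27 genes. These were 3 in replicate 1 (ADARB1, PUS1 and TRUB2) and 9 in replicate 2 (PCIF1, TRMT6, TRMT1, MRM2, MEPCE, DIMT1, HNRNPA2B1, IGF2BP1 and YTHDF2). Among all genes, 1947 of 3769 (51.7%) had a peak in both lists, and the rest in 1 alone. Replicate 2 named more genes (3205) than replicate 1 (2511), so peaks in replicate 2 alone were the more common among all genes too.

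**Figure D4:**
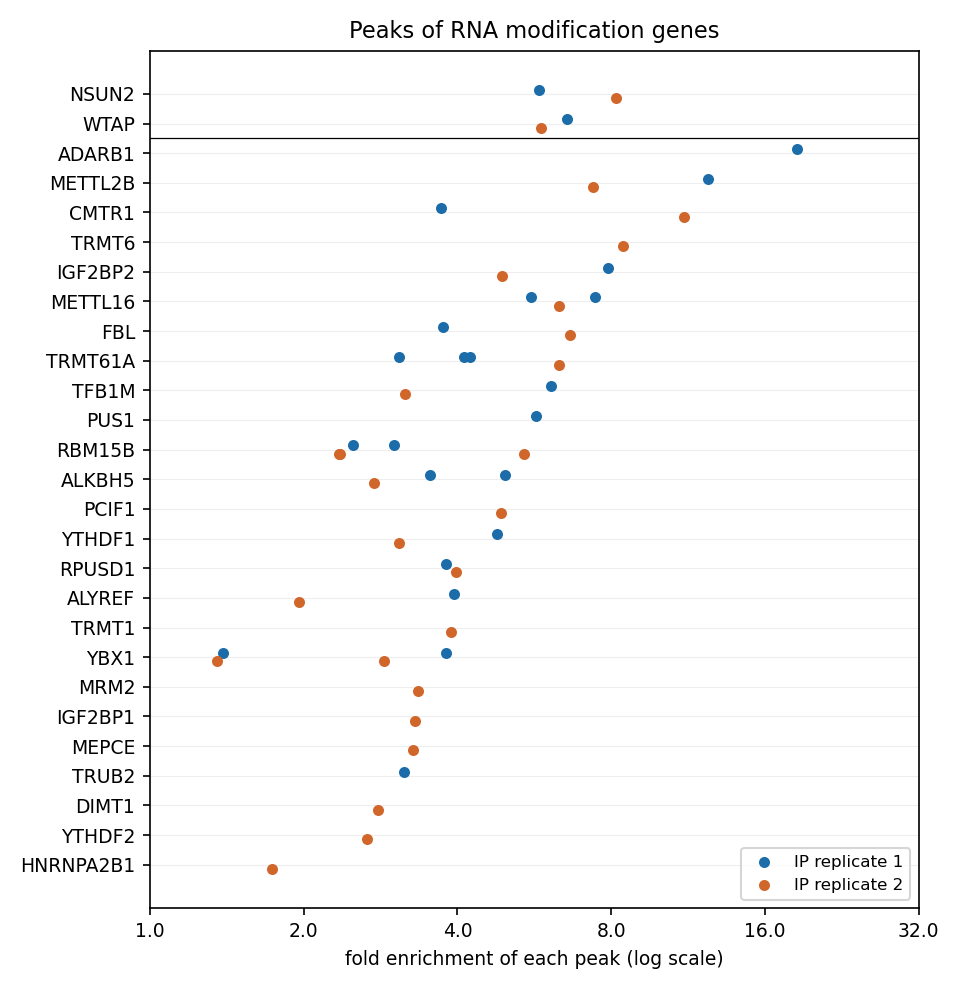
Fold enrichment of every peak (x axis, log scale) of the 27 RNA modification genes with a peak in either list (blue, IP replicate 1; orange, IP replicate 2), with NSUN2 and WTAP at the top. Each has 1 point per list, between 5.77 and 8.19 for NSUN2 and between 5.84 and 6.56 for WTAP.

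The genes most like each of the pair in enrichment were found among the 2128 shared peaks by the distance of their log2 folds over the 2 lists. Nearest to NSUN2 was RBM38, an RNA-binding protein, with folds of 5.77 in replicate 1 and 8.43 in replicate 2 (distance 0.042). IGDCC3 and the synaptic adhesion gene NLGN2 followed with 5.94 and 7.91 each, then FAM89B with 5.52 and 8.27, and MBD3, a subunit of the NuRD chromatin complex, with 6.05 and 8.13. Nearest to WTAP was CHRAC1, a histone-fold protein of a chromatin remodelling complex, with 6.55 and 5.80 (distance 0.01). The keratin gene KRT10 had 6.49 and 5.84, NPLOC4, a cofactor in protein degradation, 6.36 and 5.85, the Polycomb gene BMI1 6.36 and 5.87, and YRDC, which acts in tRNA modification, 6.56 and 5.55. The distance between NSUN2 and WTAP was 0.522, and 244 of the other 2127 shared peaks (11.5%) lay nearer to NSUN2 than WTAP did. With only 2 lists, such likeness describes the size of the folds and nothing else.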

How the data were processed

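The authors deposited 1 peak list for each m7G IP sample, and these 2 lists were the data. Per the submitters' processing notes, STAR and GRCh38 belong to the processing, in roles not given; the peak caller is not given in the sources used here. Per the file headers, each deposited peak has blocks, a p-value, log10 p and log10 FDR scores and a fold, a ratio whose scaling and compared libraries are not stated. Positions were turned to 1-based. Overlap was counted in block bases of the same gene and strand, and peaks were paired one to one by most shared bases. The overlap code was tested on replicate 1 peaks moved by known distances. Edge distances were tested on single-block peaks alone. Distances use RefSeq spans (GRCh38.p14) matched by current symbol, for peaks that overlap the span. A percentile is the share of a list's peaks with a lower value. No test was run, since 1 group of 2 samples gives no contrast. Members, gene lists and alternatives were chosen with earlier results of these data known. Named are both members, all listed RNA modification genes with a peak, and the 5 genes nearest to each member. Software was Python 3.11.15 with matplotlib 3.10.9, scipy 1.17.1, pandas 2.3.3 and numpy 2.4.6.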

Additional observations from a re-analysis of the deposited data

How the results depend on the processing

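Leaving out 1 replicate, the fold ranged from 5.77 to 8.19 for NSUN2 and from 5.84 to 6.56 for WTAP, and the share of peaks with a lower fold from 74.8 to 87.2% and from 74.6 to 80.7%. Averaged over lists, that share was 81.0% for NSUN2 and 77.7% for WTAP. For NSUN2 it moved by less than 1 SD under the other settings. For WTAP it was 70.4% among the highest-fold peak of each gene and 72.4% among the 50% of peaks with the smallest p, both above the middle of the list. As a share of the longer peak, the overlap was 57.1% for NSUN2, against 100% of the shorter, and 66.7% for WTAP, against 75%; with introns counted it was 66.7% for WTAP. The longer peak gives a lower share by construction. RNA modification genes in both lists numbered 15 by name, 5 with 80% reciprocal overlap and 8 for the 50% of peaks with the smallest p; fewer peaks pass by construction. No paired analysis was possible because input values, the partner in each numbered pair, were not analysed here. What could be called as a peak is limited by read depth, which is unknown.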
